A study of Homo sapiens with 9 samples.

Results

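The 38 genes described here are immediate early genes and ERK feedback genes, chosen by name from the AP-1, EGR, IER, DUSP, SPRY and SPRED and PEA3-type ETS families with a set of KLF, MAF, NR4A and other early response genes. All 38 were listed in each of the 9 gene tables, out of 26636 genes common to the tables. Of these, 34 averaged 1 FPKM or more across libraries and were tested among 13014 genes. FPKM is a read count per kilobase of exon, scaled to the depth of the library, so that levels of different genes can be set side by side. FOSB, EGR2, EGR3 and KLF2 lay below that mean and are described by their levels alone.

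The libraries were made from cells labelled BT549, a human breast cancer line grown with insulin and fetal bovine serum. Each of the 3 groups held 3 libraries, transfected with a control siRNA (siNC, genotype given as WT) or with siWFDC21P-1 or siWFDC21P-2, both directed against the pseudogene transcript WFDC21P. The cells received 5 µl of a 10 µM siRNA stock 24 h after seeding, and RNA was taken 48 h later. No acute stimulus is named in the labels for these cultures in serum, which does not show that none occurred.

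Immediate early genes are transcribed within minutes of growth factor or stress signals, through factors already present in the cell such as SRF with its ELK cofactors and CREB. Their products include the AP-1 and EGR transcription factors, which drive later genes. ERK feedback genes (dual-specificity phosphatases of the DUSP family, Sprouty and SPRED proteins) are induced by ERK signalling and act back on it, and the ETS factors ETV4 and ETV5 are transcribed downstream of the same pathway. Many of the messages are short-lived, and ZFP36 (tristetraprolin) is a protein that binds AU-rich elements in the 3′ UTR and promotes decay.

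To show the kind of promoter these genes carry, the 150 bases upstream of the RefSeq transcription start are printed for 4 of them that had an unadjusted p under 0.05 in a knockdown comparison and whose window overlaps no annotated exon (build GRCh38.p14, 5′ to 3′ on the gene's strand). EGR1 lies at chr5:138465329-138465478 (plus strand), DUSP1 at chr5:172771196-172771345 (minus), JUNB at chr19:12791336-12791485 (plus) and IER5 at chr1:181088550-181088699 (plus). Capitals mark a CArG box (the SRF site), the cAMP response element TGACGTCA, its core TGACG, or the TATA motif TATAAA, each searched on both strands.
EGR1: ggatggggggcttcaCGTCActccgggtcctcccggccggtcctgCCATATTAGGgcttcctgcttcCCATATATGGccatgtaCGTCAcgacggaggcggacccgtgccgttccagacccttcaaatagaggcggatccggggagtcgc
DUSP1: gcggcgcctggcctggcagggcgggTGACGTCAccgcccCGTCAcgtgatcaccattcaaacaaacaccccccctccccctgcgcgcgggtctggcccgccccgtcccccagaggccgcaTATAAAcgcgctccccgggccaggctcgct
JUNB: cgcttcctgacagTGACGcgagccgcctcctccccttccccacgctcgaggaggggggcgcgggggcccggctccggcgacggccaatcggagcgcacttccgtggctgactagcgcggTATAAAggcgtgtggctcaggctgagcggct
IER5: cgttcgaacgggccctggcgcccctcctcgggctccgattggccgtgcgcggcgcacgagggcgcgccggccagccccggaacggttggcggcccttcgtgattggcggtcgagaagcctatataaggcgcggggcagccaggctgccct
EGR1 held 2 CArG boxes, at 105 and 83 bases upstream of the start. DUSP1 held the full cAMP response element 125 bases upstream and a TATAAA 30 bases upstream. JUNB held 1 TGACG core and a TATAAA 31 bases upstream, and none of these letter strings was found in the IER5 window.

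Over the 250 bases upstream of the start, RefSeq promoters were matched for 30 of the 38 genes. The unmatched ones were DUSP4, DUSP5, EGR3, ETV4, ETV5, FOSL1, IER3 and KLF10. A CArG box was present for EGR1 and EGR2 (2 of 30 genes, against 1.44% of all 27305 genes with a promoter), and TGACGTCA for DUSP1, JUND and MAFF (3 of 30, against 2.03%). The core TGACG, which includes those full elements, was found for 15 of 30 genes (50%, against 24.9%), TATAAA for 6 of 30 (20.0%, against 13.0%), and the AP-1 site TGACTCA or TGAGTCA for 0 of 30 (against 5.19%). In the 3′ UTR, the AU-rich nonamer TTATTTATT was present in 8 of the 38 genes (21.1%), against 9.6% of 11077 tested genes with an annotated 3′ UTR. IER5 held 3 copies, DUSP1 and MAFF 2 each, and PHLDA1, DUSP4, FOSL2, FOS and ZFP36 1 each. These are matches of letters, not measured sites.

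Depth lay between 16.3 and 29.7 M reads per library. The libraries fell into 3 expression backgrounds, defined by clustering of all genes (correlation 0.927 to 0.986 within a background and 0.658 to 0.744 between them). Background 1 held siNC replicate 1 with siWFDC21P-1 replicates 1 and 2. Background 2 held the library labelled siNC replicate 2 with siWFDC21P-1 replicate 3, and background 3 held siNC replicate 3 with all 3 siWFDC21P-2 libraries. The 4 libraries of background 3 had 16.3 to 17.4 M reads, and the other 5 had 28.1 to 29.7 M. The names of the deposited data come in 2 styles, which split the libraries in the same way. Depth, naming style and background 3 can therefore not be told apart. The markers went against the label of 1 mesenchymal line. The 5 epithelial markers (EPCAM, CDH1, KRT19, ESRP1, CLDN4) summed to 871 to 1277 FPKM in background 2, to 0.495 to 1.25 in background 1 and to 1.23 to 2.09 in background 3. N-cadherin (CDH2) was at 14.7 to 18.1 FPKM in background 3 and at 0 to 0.00698 in the other 5 libraries. Against the siNC library of its background, WFDC21P was at 2.04% and 24.9% in siWFDC21P-1 replicates 1 and 2 and at 30.8 to 60.2% in the siWFDC21P-2 libraries. The library labelled siNC replicate 2 had 0.129 FPKM (4 reads), near the 0.227 FPKM (7 reads) of siWFDC21P-1 replicate 3. It could thus not serve as a control for the level of the target, and whether its label is right was not tested.

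The first question was how the genes are set in each background, since every knockdown library is compared with the siNC library of its own. Because the backgrounds come from clustering the same values, these levels are a description and were not tested. The counts below were not made over all genes, so they do not set these genes apart from others. The mean level was highest in background 3 for 20 of the 38 genes, in background 1 for 12 and in background 2 for 6. For 15 of the 20, every library of background 3 stood above every other library (FOSL1, JUN, EGR1, EGR2, EGR3, IER5L, DUSP4, DUSP6, SPRY1, SPRY2, SPRY4, ETV5, KLF6, MAFF and ZFP36). In background 1 this held for DUSP2, ETV4, KLF4, NR4A1 and BTG2, and in background 2 for SPRED1 and GADD45B. Background 2 was the lowest without overlap for 10 genes, among them FOSL1, DUSP1, DUSP4, DUSP6, ETV5 and KLF4. In bulk RNA, fewer cells that express a gene and less RNA per cell cannot be told apart.

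**Figure D1:**
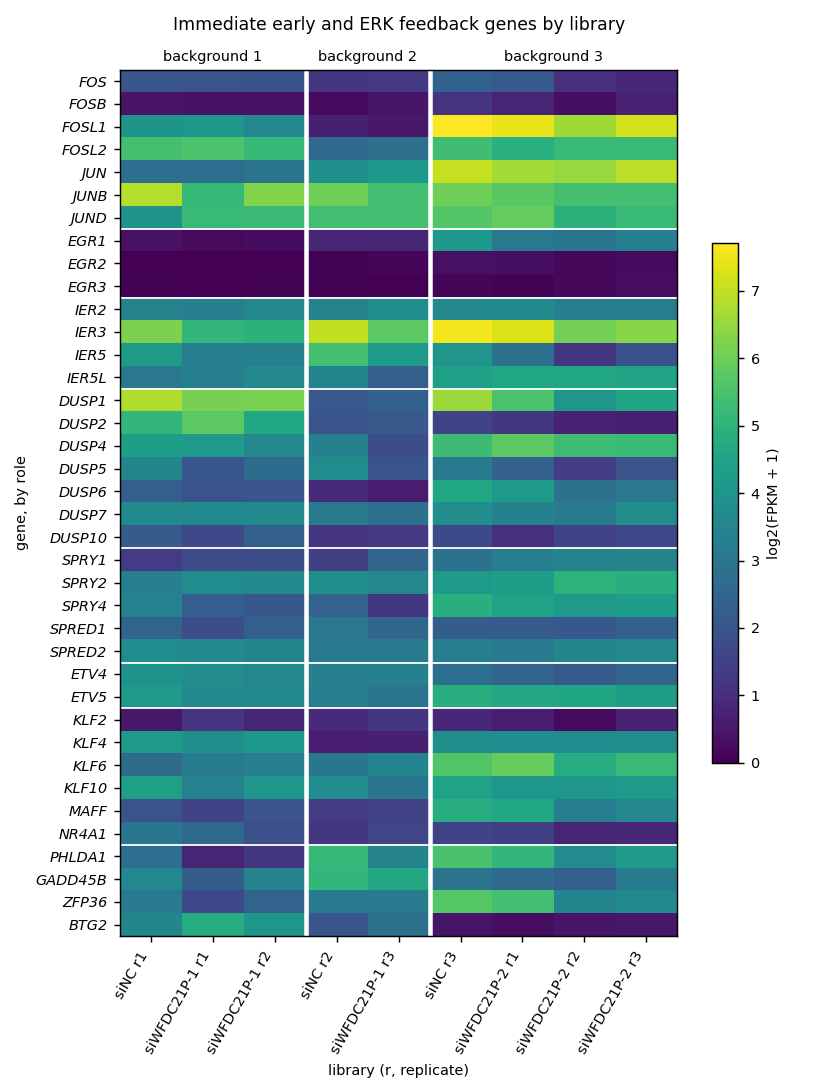
Level of each of the 38 genes (rows, grouped by role) in each of the 9 libraries (columns, grouped by background), as log2(FPKM + 1) by colour. FOSL1, JUN, EGR1, MAFF and ZFP36 are brightest in background 3, whereas BTG2 and DUSP2 are brightest in background 1.

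The backgrounds were cut from these values, which put the 3 siNC libraries in different backgrounds and each knockdown library with its own control. A wider spread between siNC libraries than against the own control therefore follows largely from the clustering. Among the 34 tested genes, the range over the siNC libraries exceeded the largest knockdown difference for 27, with medians of 1.77 and 1.13 on the log2(FPKM + 1) scale. FOSL1 had the widest range, 7.03, followed by DUSP1 with 4.63 and JUN with 4.22. For 15 of the 34 genes the range over the siNC libraries was 2 or more, a fold of at least 4 on this scale. The same counts over all tested genes were not made, so they do not set these genes apart from others.

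Within backgrounds, no gene of the set passed the test for either siRNA. In limma with the background in the model, 3 of 13014 genes passed for siWFDC21P-1 (0.0231%) and 0 of the 34, and for siWFDC21P-2 0 genes passed (0.0%). The smallest adjusted p among the 34 was 0.0618 for siWFDC21P-1 (SPRY4) and 0.756 for siWFDC21P-2. At an unadjusted p under 0.05, 9 genes were lower and 2 higher with siWFDC21P-1, where 5.06% of all genes were lower and 8.69% higher. With siWFDC21P-2, 8 were lower and 0 higher, where 2.35% of all genes were lower and 2.89% higher. The fitted log2 fold change was negative for 25 of the 34 under siWFDC21P-1 and for 29 under siWFDC21P-2, against 46.2% and 47.1% of all tested genes. The medians were -0.15 and -0.35, against 0.03 and 0.02 over all tested genes. Without siNC replicate 1, background 1 has no control and the estimate is that of siWFDC21P-1 replicate 3 against siNC replicate 2. In this pair WFDC21P was not lower (0.227 against 0.129 FPKM). There 17 of the 34 fold changes were negative and 17 positive, with a median of 0.00, where 45.4% of all genes were negative. Without siNC replicate 2, which leaves background 1 for this siRNA, 26 were negative and 8 positive, where 47.4% of all genes were negative. By limma-voom on recovered reads, 1 of the 34 passed for siWFDC21P-1 (SPRY4, lower), where 26 of 12720 genes passed (0.0472% lower and 0.157% higher). For siWFDC21P-2 limma-voom called 0 genes (0.0% in either direction). In simulated data a uniform log2 change of 1 was called in 0% of genes for both siRNAs, and a change of 2 in 78.5% and 65.5%. The simulated noise came from a fit without the siRNA group, so it included any siRNA effect. A change of about 1 could thus be missed in this fit, but the simulation cannot show that every such change would be.

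With siWFDC21P-1, 14 of 34 genes (41.2%) were below the siNC library of the same background in all 3 libraries, where 20.7% of all tested genes were, and 4 (BTG2, JUND, KLF6 and SPRY1) were above in all 3, where 27.9% were. With siWFDC21P-2, 23 of 34 (67.6%) were below in all 3, against 26.0%, and 3 (IER5L, SPRY1 and SPRY2) were above, against 26.9%. Across all 6 knockdown libraries, 11 genes were below their control (DUSP5, DUSP6, DUSP7, EGR1, ETV5, IER3, IER5, JUNB, KLF10, PHLDA1 and SPRY4), against 7.92% of all tested genes. SPRY1 alone among the 34 was above in all 6, against 10.8%. The 6 include siWFDC21P-1 replicate 3, where WFDC21P was not lower than in its control (0.227 against 0.129 FPKM, 7 against 4 reads). The siWFDC21P-2 libraries share 1 control library and the first pair of siWFDC21P-1 libraries share another, so a high value in either control lowers every library set against it.

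**Figure D2:**
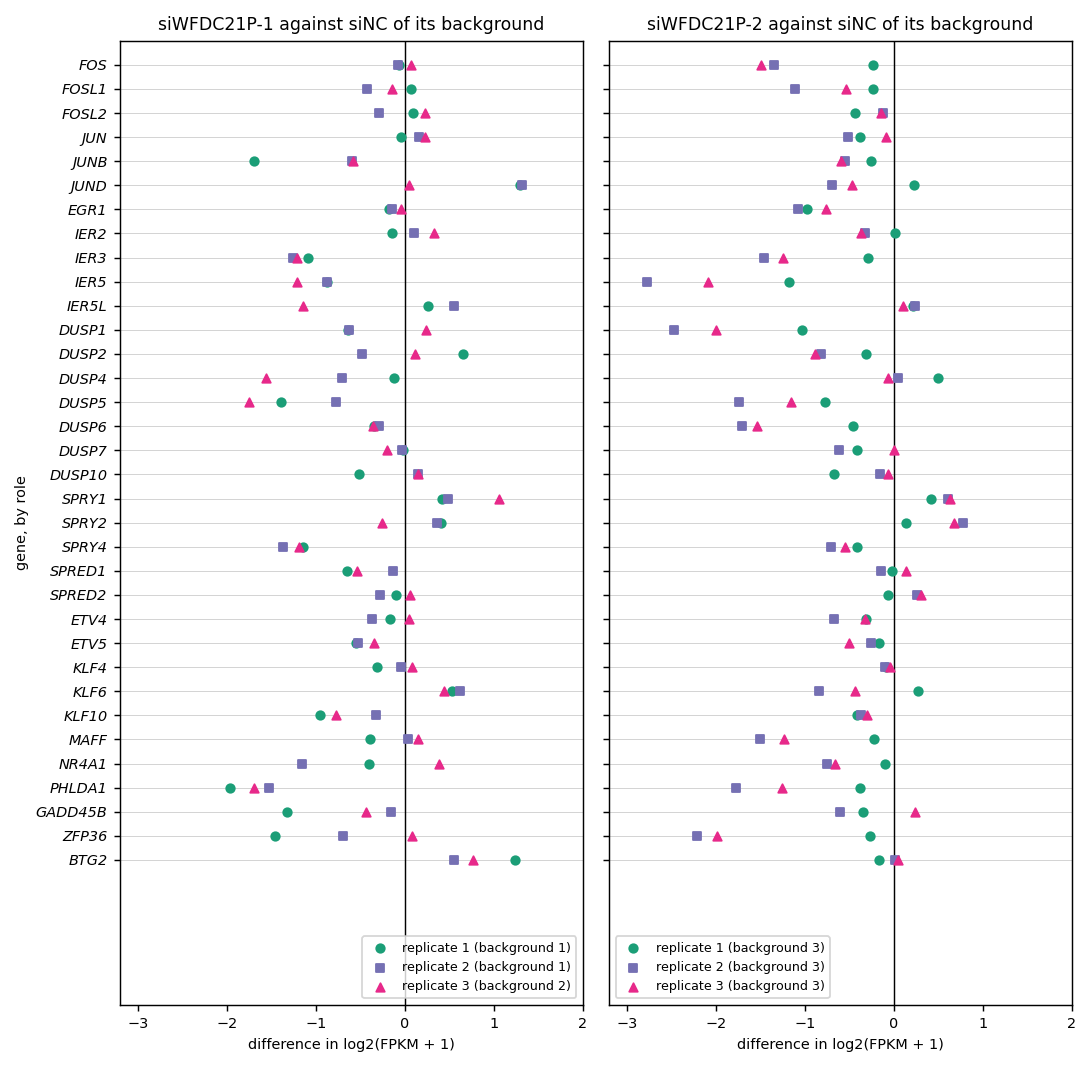
Difference in log2(FPKM + 1) between each knockdown library and the siNC library of its background, for the 34 tested genes ordered by role; each point is 1 library. Points of DUSP5, IER3, IER5, PHLDA1 and SPRY4 lie left of 0 in all 6 libraries and those of SPRY1 lie right of it, and replicate 1 of siWFDC21P-2 lies nearer to 0 than replicates 2 and 3 for most of the genes lower there.

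The AP-1 factors are dimers of FOS and JUN proteins. FOSL1 (FRA1, a FOS protein that accumulates under sustained ERK activity) was at 208 FPKM in siNC replicate 3, compared with 177, 96.2 and 144 FPKM in siWFDC21P-2 replicates 1 to 3. In background 1 it was at 14.9 FPKM in the control and at 15.7 and 10.8 with siWFDC21P-1, and in background 2 at 0.599 and 0.453. The mean of background 3 was 297 times that of background 2, the largest ratio among the genes whose mean reached 0.2 FPKM in every background. All 3 siWFDC21P-2 libraries were below their control (-0.62 ± 0.35, log2 fold change ± SE, adjusted p = 0.756).

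JUN itself was at 130 FPKM in siNC replicate 3, compared with 99.7, 91.1 and 122 with siWFDC21P-2, all 3 below the control by less than 0.6 log2 units. It was at 6.06, 5.88 and 6.88 FPKM in background 1 and at 13.7 and 16.2 in background 2. JUNB, which forms AP-1 dimers of its own, was at 115 FPKM in siNC replicate 1, compared with 34.8 and 75.7 with siWFDC21P-1, and at 63.0 against 41.8 FPKM in background 2. All 3 siWFDC21P-1 libraries were lower, by -0.90 ± 0.33 (adjusted p = 0.291). With siWFDC21P-2 it was at 52.1, 42.5 and 41.2 FPKM against 62.7 in the control (-0.47 ± 0.41).

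JUND, the JUN protein least tied to acute induction, went the other way in background 1, at 14.2 FPKM in the control and 36.2 and 36.9 with siWFDC21P-1. Background 2 showed no such gap (40.5 against 41.8 FPKM), and in background 3 it was at 49.3 FPKM in the control against 57.6, 30.02 and 35.3 with siWFDC21P-2 (-0.32 ± 0.44). The siNC replicate 1 value was the lowest of all 9 libraries, and the fitted difference was 0.76 ± 0.35 (adjusted p = 0.396). FOS was low throughout, at 0.845 to 4.21 FPKM. It was at 3.08, 2.92 and 2.87 FPKM in background 1 and at 1.35 and 1.46 in background 2, with siWFDC21P-1 libraries at 93.2 to 108% of their controls. In background 3 it was at 4.21 FPKM in the control and at 3.43, 1.05 and 0.845 with siWFDC21P-2, where the last pair stood at 25.0% and 20.1% of the control. FOSB, the lowest of the AP-1 genes, was at 0.32 FPKM in siNC replicate 1 against 0.299 and 0.297, at 0.166 against 0.352 in background 2, and at 1.28 against 0.756, 0.247 and 0.639 in background 3. FOSL2 was at 28.9 to 45.2 FPKM in backgrounds 1 and 3 and at 5.2 to 6.25 in background 2.

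Of the EGR zinc finger factors, EGR1 alone reached the test. It was at 16.1 FPKM in siNC replicate 3, compared with 7.7, 7.10 and 9.14 with siWFDC21P-2, so that the libraries stood at 47.6%, 44.0% and 56.6% of the control. The reads behind these values were 826 in the control and 373 to 493 in the knockdown libraries. No siWFDC21P-2 library overlapped the control, and the fitted difference of -0.94 ± 0.21 had the smallest unadjusted p of the set for this siRNA (0.00226, adjusted p = 0.756). In background 1 EGR1 was at 0.305 FPKM in the control against 0.154 and 0.183, and in background 2 at 0.777 against 0.726, with 14 to 69 reads a library. There the siWFDC21P-1 libraries were at 50.6% (95% counting interval 24.6 to 99.3%), 59.9% (30.7 to 113%) and 93.4% (65.4 to 133%) of their controls. EGR3 was near 0 in every library, at 0.0211 against 0.00712 and 0.0416 FPKM in background 1, at 0.0291 against a listed 0 in background 2, and at 0.0885 against 0.0474, 0.111 and 0.216 in background 3. EGR2 stayed at or below 0.283 FPKM and was listed at 0 in all 3 libraries of background 1.

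The IER genes are induced by growth factors and stress. IER3 (IEX-1, linked to cell survival and ERK signalling) was at 72.7 FPKM in siNC replicate 1, compared with 33.5 and 29.9 with siWFDC21P-1, at 126 against 53.6 FPKM in background 2, and at 189 against 154, 67.9 and 79.1 FPKM in background 3. Each knockdown library was below its control. The siWFDC21P-1 libraries stood at 46.2%, 41.1% and 42.6% of it, and those of siWFDC21P-2 at 81.5%, 36.0% and 42.0%. The value of 42.6% is from background 2, where WFDC21P itself was not lower than in the control. The fitted differences were -1.19 ± 0.33 (adjusted p = 0.209) and -1.0 ± 0.42 (adjusted p = 0.756).

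IER5, which acts on the heat shock factor HSF1 with the phosphatase PP2A, was at 17.5 FPKM in siNC replicate 1, compared with 9.11 and 9.08 with siWFDC21P-1. In background 2 it was at 41.0 against 17.2 FPKM, and in background 3 at 15.2 against 6.18, 1.37 and 2.82. It was lower in 6 of 6 libraries, and siWFDC21P-2 replicates 2 and 3 had 9.01% (7.23 to 11.1%) and 18.6% (15.9 to 21.6%) of their control. The difference of -2.01 ± 0.52 for siWFDC21P-2 was the largest of the set, while siWFDC21P-1 gave -1.02 ± 0.41. IER2 varied little, at 9.97 FPKM against 8.90 and 10.8 in background 1, at 10.00 against 12.8 in background 2, and at 11.4 against 11.5, 8.91 and 8.64 in background 3. IER5L was at 7.47 FPKM in siNC replicate 1, compared with 9.13 and 11.4 with siWFDC21P-1, but at 10.2 against 4.03 FPKM in background 2. In background 3 it was at 20.0 FPKM in the control and at 23.3, 23.8 and 21.5 with siWFDC21P-2.

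**Figure D3:**
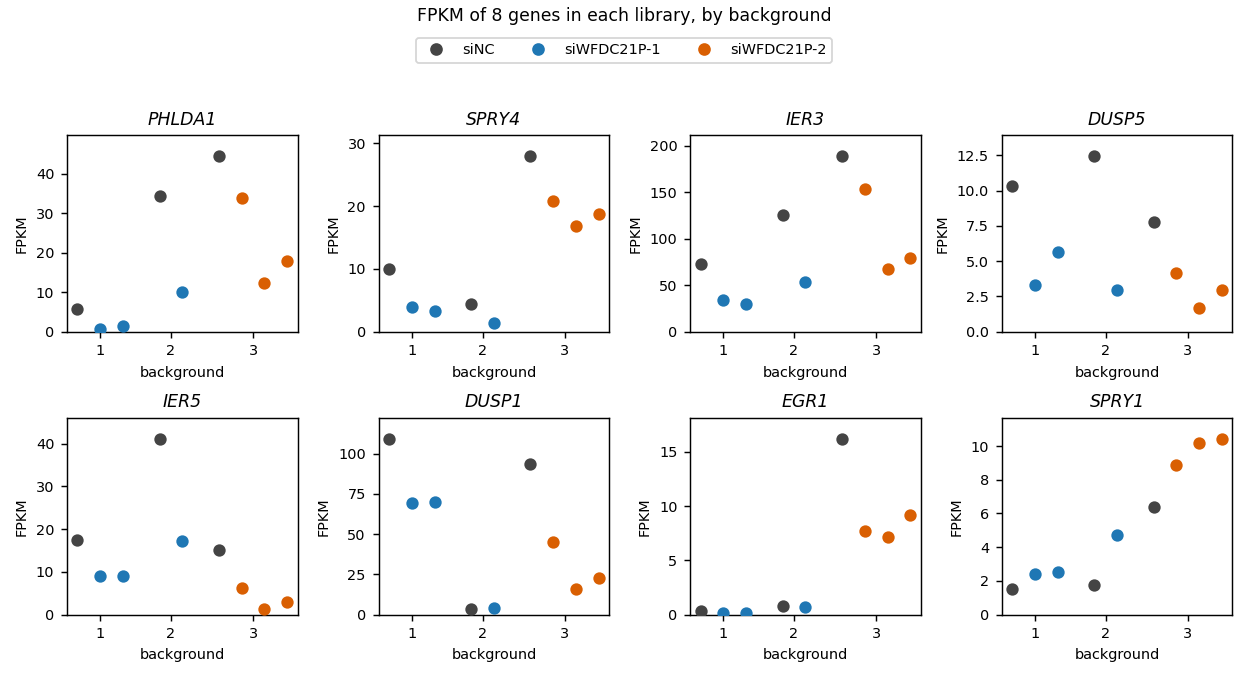
FPKM of 8 genes in each library, placed by background with the siNC library first and then the knockdown libraries by replicate number; each point is 1 library and each panel has its own axis from 0. The siNC point is the highest of its background for PHLDA1, SPRY4, IER3, DUSP5 and IER5 and the lowest for SPRY1, and EGR1 is near 0 outside background 3.

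The DUSP genes encode phosphatases that inactivate MAP kinases. DUSP5 (a nuclear, ERK-selective phosphatase) was at 10.3 FPKM in siNC replicate 1, compared with 3.29 and 5.62 with siWFDC21P-1, at 12.4 against 2.98 in background 2, and at 7.81 against 4.16, 1.65 and 2.96 in background 3. The control was the highest library of every background, with knockdown libraries at 21.1 to 54.5% of it. Its differences, -1.37 ± 0.33 for siWFDC21P-1 (adjusted p = 0.167) and -1.22 ± 0.42 for siWFDC21P-2 (adjusted p = 0.756), differed from each other by 0.15 ± 0.53 (adjusted p = 0.957).

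DUSP6, the cytoplasmic ERK phosphatase often read as a gauge of ERK output, was at 23.2 FPKM in siNC replicate 3, compared with 16.5, 6.41 and 7.30 with siWFDC21P-2 (-1.24 ± 0.44). With siWFDC21P-1 it was at 3.99 FPKM in the control against 2.93 and 3.07 in background 1, and at 0.923 against 0.507 in background 2 (-0.33 ± 0.35). All 6 libraries were lower, and those of siWFDC21P-2 replicates 2 and 3 stood at 27.7% and 31.5%. DUSP1 (MKP-1, a phosphatase acting mostly on p38 and JNK) was at 93.5 FPKM in siNC replicate 3, compared with 45.3, 16.0 and 22.6 with siWFDC21P-2 (-1.84 ± 0.51). In background 1 it was at 109 FPKM in the control and at 69.6 and 70.0 with siWFDC21P-1, whereas in background 2 it was low and on the other side, at 3.45 against 4.25. The difference between the 2 siRNAs was -1.57 ± 0.66 and did not pass (adjusted p = 0.83).

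DUSP4, another nuclear ERK phosphatase, was at 18.5 FPKM in siNC replicate 1 against 16.9 and 11, and at 9.40 against 2.54 in background 2 (-0.90 ± 0.32, adjusted p = 0.281). With siWFDC21P-2 it was at 53.6, 38.8 and 35.9 FPKM around a control of 37.6, so that the libraries lay on both sides. DUSP2 was at 23.5 to 53.0 FPKM in background 1, 3.11 to 3.44 in background 2 and 0.602 to 1.97 in background 3. DUSP10 was at 3.67 FPKM against 2.27 and 4.20 in background 1, at 1.25 against 1.5 in background 2, and at 2.34 against 1.08, 1.99 and 2.18 in background 3. DUSP7 was at 6.55 to 12.9 FPKM over the 9 libraries, and both genes had differences of -0.34 or nearer to 0 for both siRNAs.

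Sprouty and SPRED proteins restrain the RAS to ERK pathway, and 2 Sprouty genes lay on opposite sides of their controls. SPRY4 was at 9.98 FPKM in siNC replicate 1, compared with 3.95 and 3.26 with siWFDC21P-1, at 4.39 against 1.36 in background 2, and at 27.9 against 20.8, 16.8 and 18.8 in background 3. The siWFDC21P-1 libraries stood at 39.6%, 32.7% and 31.1% of their controls, and those of siWFDC21P-2 at 74.3%, 60.1% and 67.2%, with no overlap between the siRNAs. SPRY4 had the smallest adjusted p of the set for siWFDC21P-1 (-1.23 ± 0.17, adjusted p = 0.0618). It passed when only genes averaging 5 FPKM or more were tested (adjusted p = 0.0446, among 0.0782% of those genes lower and 0.261% higher) and in limma-voom on recovered reads (adjusted p = 0.0461). The siWFDC21P-2 difference was -0.55 ± 0.21, and the difference between the siRNAs, 0.67 ± 0.27, did not pass (adjusted p = 0.83).

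SPRY1 stood at 1.54 FPKM in siNC replicate 1, compared with 2.38 and 2.54 with siWFDC21P-1, at 1.75 against 4.72 in background 2, and at 6.36 against 8.85, 10.2 and 10.4 in background 3. All 6 knockdown libraries were above their control, at 139 to 270% of it. The fitted differences were 0.71 ± 0.19 (adjusted p = 0.195) and 0.55 ± 0.24 (adjusted p = 0.756). SPRY2 was at 17.3 FPKM in siNC replicate 3, compared with 19.1, 30.4 and 28.2 with siWFDC21P-2 (0.53 ± 0.31). In the other backgrounds it was at 9.11 FPKM against 12.4 and 12, and at 13.3 against 11, on opposite sides. SPRED1 was lower in the 3 siWFDC21P-1 libraries (4.5 against 2.5 and 4.03 FPKM, and 7.51 against 4.88) with a difference of -0.45 ± 0.21, and in background 3 was at 3.82 FPKM in the control against 3.74, 3.36 and 4.30. SPRED2 was at 12.5 FPKM against 11.6 and 10.1 in background 1, at 7.69 against 8.06 in background 2, and at 8.79 against 8.32, 10.7 and 11.1 in background 3.

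ETV5, an ETS factor transcribed downstream of ERK, was at 17.4 FPKM in siNC replicate 1, compared with 11.6 and 11.8 with siWFDC21P-1, at 8.86 against 6.76 in background 2, and at 27.4 against 24.2, 22.8 and 19.0 in background 3. It was lower in 6 of 6 libraries by a small margin, -0.45 ± 0.17 (adjusted p = 0.3) and -0.31 ± 0.21. Its relative ETV4 was at 6.11 FPKM in siNC replicate 3, compared with 4.73, 3.45 and 4.66 with siWFDC21P-2 (-0.44 ± 0.24), whereas it was at 14.3 FPKM against 12.6 and 10.9 in background 1 and at 9.18 against 9.54 in background 2 (-0.13 ± 0.19).

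Among the KLF, MAF and NR4A factors, KLF10 (induced early by TGF-β) was at 19.6 FPKM in siNC replicate 1 against 9.69 and 15.5, at 12.4 against 6.90 in background 2, and at 20.9 against 15.5, 16.1 and 16.8 in background 3. It was lower in all 6 libraries (-0.69 ± 0.21, adjusted p = 0.235, and -0.36 ± 0.26). KLF6, a zinc finger factor of the same family, was above its control with siWFDC21P-1 (5.38 against 8.24 and 8.78 FPKM, and 7.22 against 10.1), and lay at 58.5, 26.5 and 35.5 FPKM around 48.3 with siWFDC21P-2. MAFF, a small MAF protein, was at 27.0 FPKM in siNC replicate 3, compared with 23.0, 8.87 and 10.9 with siWFDC21P-2 (-0.99 ± 0.47), and at 1.57 to 3.05 FPKM elsewhere. KLF4 was at 12.3 to 16.7 FPKM in backgrounds 1 and 3 and at 0.512 to 0.603 in background 2, with differences of -0.07 for both siRNAs. NR4A1, an orphan nuclear receptor, was at 0.745 to 7.15 FPKM. KLF2, the lowest of these factors, was at 0.407 FPKM against 1.23 and 0.768 in background 1, at 0.876 against 1.34 in background 2, and at 0.821 against 0.513, 0.178 and 0.663 in background 3.

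PHLDA1, an early response gene whose message follows ERK activity, showed the largest siWFDC21P-1 difference of the set. It was at 5.75 FPKM in siNC replicate 1, compared with 0.733 and 1.34 with siWFDC21P-1, at 34.3 against 9.92 in background 2, and at 44.4 against 33.8, 12.2 and 17.9 in background 3. The 3 siWFDC21P-1 libraries stood at 12.7% (10.8 to 14.9%), 23.2% (20.5 to 26.3%) and 28.9% (27.6 to 30.3%) of their controls, and the siWFDC21P-2 libraries at 76.1%, 27.5% and 40.4%. The differences were -1.72 ± 0.38 (adjusted p = 0.14) and -1.14 ± 0.48 (adjusted p = 0.756).

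ZFP36 was at 50.4 FPKM in siNC replicate 3, compared with 41.6, 10.1 and 12 with siWFDC21P-2 (-1.49 ± 0.74). It was at 7.83 FPKM against 2.22 and 4.46 in background 1 and at 7.79 against 8.27 in background 2, so that siWFDC21P-1 gave no common side (-0.58 ± 0.60). BTG2, an antiproliferative gene induced by p53, was at 10.6 FPKM in siNC replicate 1, compared with 26.4 and 16.0 with siWFDC21P-1, and at 3.21 against 6.13 in background 2. All 3 siWFDC21P-1 libraries were above their control (0.84 ± 0.23, adjusted p = 0.197). In background 3 BTG2 was at 0.356 FPKM in the control against 0.208, 0.368 and 0.401, with 10 to 19 reads a library, and no difference was detectable at this depth. GADD45B, a stress-induced regulator of MAP kinase signalling, was at 3.85 to 11.2 FPKM in backgrounds 1 and 3 and at 24.4 to 33.4 in background 2.

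Replicate 1 of siWFDC21P-2 stood apart from replicates 2 and 3 in this set. In it, 2 of the 34 genes (DUSP1 and IER5) were at least 1 log2 unit below the control, where 0.661% of all tested genes were. Replicate 2 had 11 such genes (4.26% of all) and replicate 3 had 9 (3.71%). On the higher side, 0 of the 34 reached 1 log2 unit in any of the 3 libraries, where 0.576%, 5.18% and 4.78% of all tested genes did. The 9 of replicate 3, DUSP1, DUSP5, DUSP6, FOS, IER3, IER5, MAFF, PHLDA1 and ZFP36, were all among the 11 of replicate 2. For siWFDC21P-1 the corresponding numbers were 7 lower and 2 higher in replicate 1 (4.15% and 3.33% of all), 4 lower and 1 higher in replicate 2 (2.47% and 3.03%), and 7 lower and 1 higher in replicate 3 (1.84% and 2.02%). IER3, PHLDA1 and SPRY4 were in all 3 of these lists of lower genes. The overlaps between lists were not counted over all tested genes, so they do not set these genes apart from others. Libraries set against the same control library are also not independent of each other.

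The calls depended on siWFDC21P-2 replicate 1. Without it, 902 genes passed for siWFDC21P-2 (2.61% of all lower and 4.32% higher), and 9 of the 34 were among them, all lower. These were IER5 (-2.43 ± 0.30, adjusted p = 0.0133), DUSP1 (-2.24 ± 0.32, adjusted p = 0.0181), ZFP36 (-2.10 ± 0.43), DUSP6 (-1.62 ± 0.18), PHLDA1 (-1.52 ± 0.28), FOS (-1.42 ± 0.18), MAFF (-1.37 ± 0.26), IER3 (-1.35 ± 0.17) and EGR1 (-0.92 ± 0.20, adjusted p = 0.0493). For siWFDC21P-1, whose own libraries were unchanged but whose spread was estimated anew, IER3 (-1.19 ± 0.13), PHLDA1 (-1.72 ± 0.21) and SPRY4 (-1.23 ± 0.14) fell, among 153 genes (0.246% of all lower and 0.93% higher). FOS was then among 182 genes that differed between the siRNAs, 0.653% of all being lower and 0.745% higher with siWFDC21P-2 (-1.41 ± 0.22, adjusted p = 0.0469). FOS and MAFF are named here after their values were seen.

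The direct test of the 2 siRNAs against each other, with all 9 libraries, called 0 of 13014 genes (0.0%) in limma. At an unadjusted p under 0.05 it had 1 of the 34 genes higher with siWFDC21P-2 (SPRY4, 2.35% of all genes) and 3 lower (EGR1, DUSP1 and BTG2, 3.05%). Under the background term the siRNAs are set against different siNC libraries, and the siRNA and the background cannot be told apart. Within siWFDC21P-1, the test of background 1 against background 2 also called 0 genes (0.0%). At an unadjusted p under 0.05 it had 1 of the 34 (IER5L, 1.55 ± 0.34), where 1.48% of all genes lay on that side and 1.94% on the other.

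Other genes of the pathway were taken from lists by position in it. The 13 genes of RAS, RAF, MEK and ERK had 0 passing for either siRNA, and at an unadjusted p under 0.05 only MRAS, a RAS-related GTPase, was higher with siWFDC21P-1 (3.94 against 8.0 and 10.3 FPKM, and 9.31 against 14.2; 0.83 ± 0.19). Among 7 tested receptors FGFR1 was lower (-0.48 ± 0.16) and IGF1R higher (0.44 ± 0.17) with siWFDC21P-1, and 0 of the 7 reached that level with siWFDC21P-2. In the adaptors and RAS regulators (11 genes) the phosphatase PTPN11 was higher with siWFDC21P-1 (0.71 ± 0.19). Of 12 kinases downstream of ERK and SRF factors, ELK3 (0.51 ± 0.18) and ELK4 (0.51 ± 0.21), both partners of SRF at CArG boxes, were higher with siWFDC21P-1. None of these passed the adjusted threshold.

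The list of other growth factor response genes, 19 of 22 tested, had 6 genes lower and 1 higher at an unadjusted p under 0.05 with siWFDC21P-1, and 2 lower and 2 higher with siWFDC21P-2. Its lower genes included MCL1, a short-lived survival factor, at 190 FPKM against 76.6 and 83.0 in background 1, 124 against 68.2 in background 2 and 130 against 82.5, 63.0 and 62.8 in background 3 (-1.07 ± 0.20, adjusted p = 0.112, and -0.90 ± 0.25). PLAUR, the urokinase receptor and an AP-1 target, was at 27.0 FPKM against 5.64 and 8.08 and at 5.07 against 1.45 with siWFDC21P-1 (-1.62 ± 0.22, adjusted p = 0.0618), and at 18.1 against 16.6, 15.9 and 20.0 with siWFDC21P-2. HBEGF, a ligand of the EGF receptor, was at 13.8 FPKM against 7.14, 3.03 and 5.67 with siWFDC21P-2 (-1.29 ± 0.38). The higher genes of this list were NR4A2 with siWFDC21P-1 (0.50 ± 0.19), and SGK1 (1.57 ± 0.59) and CCN2 (1.40 ± 0.55) with siWFDC21P-2. The 11 JNK and p38 kinases had 1 gene higher and 1 lower with siWFDC21P-1, and siWFDC21P-2 had 1 higher.

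Several stress genes stood higher in siNC replicate 3 and siWFDC21P-2 replicate 1 than in all other libraries. HSPA6 was at 118 and 49.4 FPKM in them and at most at 0.213 elsewhere. DDIT3 was at 53.2 and 51.7 FPKM against 1.28 to 6.89. HSPD1 did not follow, at 148 and 154 FPKM against 102 to 348. The only control of background 3 thus held high stress transcripts, and siWFDC21P-2 replicates 2 and 3 lay below it. HSPA1A, an inducible HSP70, was at 495 FPKM in siNC replicate 3, compared with 240, 22.5 and 25.5 with siWFDC21P-2, and SESN2, a target of the integrated stress response, at 84.6 against 54.4, 6.71 and 6.94. The 11 heat shock genes had median differences of -0.52, -1.02 and -0.82 in siWFDC21P-2 replicates 1 to 3, and the 12 unfolded protein and integrated stress genes had -0.24, -2.50 and -2.17. Of these lists 0 genes passed for siWFDC21P-2, and 6 and 3 were lower at an unadjusted p under 0.05. The early genes had medians of -0.27, -0.65 and -0.45. With siWFDC21P-1 the heat shock median was 0.45, 0.71 and -0.25, where that of the early genes was -0.25, -0.29 and 0.00.

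Markers of cell types also differed between these libraries. The 5 mesenchymal markers of BT549 had median differences of -0.05, -0.73 and -0.74 in siWFDC21P-2 replicates 1 to 3, and summed to 442 FPKM in siNC replicate 3 and to 221 to 408 with siWFDC21P-2. VIM (vimentin, an intermediate filament protein of mesenchymal cells) was at 310 FPKM in that control against 309, 162 and 178, and ZEB1, a repressor of epithelial genes, at 33.1 against 32.0, 19.6 and 19.4. AXL was at 76.0 FPKM against 45.7, 16.9 and 36.0. FN1 went the other way, at 4.56 FPKM against 5.70, 7.285 and 9.13. CDH2 lay on both sides of its control, at 17.7 FPKM against 15.9, 14.7 and 18.1. The fibroblast markers (THY1, COL1A2, COL3A1, LUM and PDGFRB) were on the other side, summing to 106 FPKM in siNC replicate 3 and to 153 to 608 with siWFDC21P-2, with 4 of the 5 reaching 1 FPKM and COL3A1 at 5.75 against 23.0, 242 and 222 FPKM. In background 3 the leukocyte markers summed to at most 8.86 FPKM, nearly all from CD14, and the endothelial markers to at most 0.0435. The part of stress genes, of mesenchymal identity and of other cells in the levels of the early genes was not tested.

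**Figure D4:**
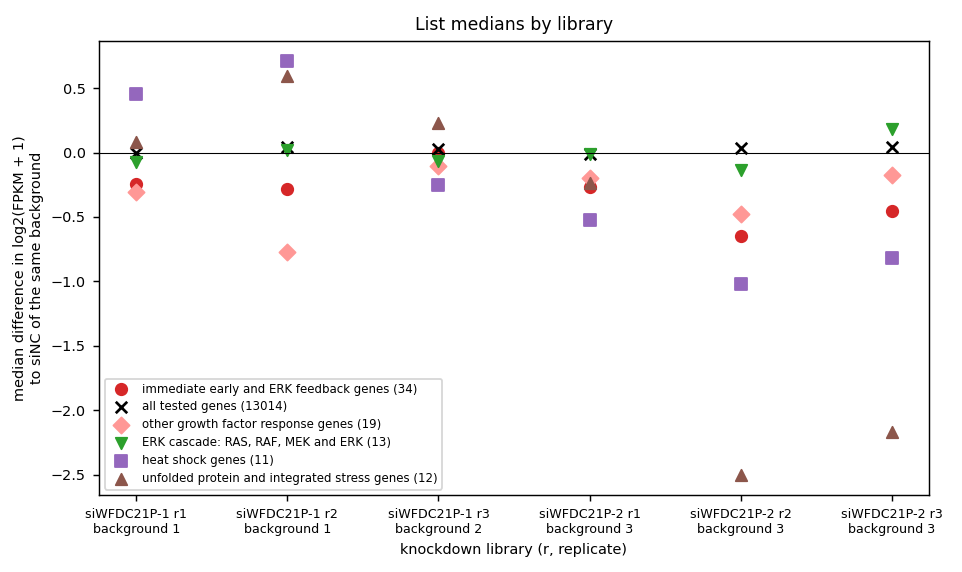
Median difference in log2(FPKM + 1) from the siNC library of the same background, per knockdown library, for the early genes, all tested genes and 4 other lists (number of tested genes in brackets); each symbol is 1 list in 1 library. The median of the early genes lies between -0.65 and 0.00, that of RAS, RAF, MEK and ERK within 0.18 of 0, and that of the unfolded protein and integrated stress genes at -2.50 and -2.17 in siWFDC21P-2 replicates 2 and 3.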

How the data were processed

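For each Ensembl gene the authors deposited an FPKM value, made from total RNA libraries (3 for each of siNC, siWFDC21P-1 and siWFDC21P-2). HISAT2 2.1.0, Bowtie2 2.2.3, HTSeq 0.6.0 and hg38 are named per the submitters' processing notes. Whether counting used the strand is not given in the sources used here, and 15 of the 38 genes (IER3, SPRY4, DUSP1, DUSP6, JUNB and PHLDA1 among them) overlap a gene on the opposite strand in GENCODE v29, whose reads could then not be told apart. Of the low values, 95.1 to 96.1% came out as whole reads (within 0.02 reads), which gave depths of 16.3 to 29.7 M reads and whole reads for 25588 of 26636 common genes (96.1%). Intervals (95%, exact conditional binomial) on reads cover counting error only.

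With limma 3.58.1 under R 4.3.3, log2(FPKM + 1) was tested for genes averaging 1 FPKM or more, with trended empirical Bayes variances, group and background in the model, and Benjamini-Hochberg adjustment at 0.05 over 13014 genes. Fold changes are on that scale, which understates the change of low genes. The backgrounds are 3 sets from average-linkage clustering of 1 minus Pearson r at a height of 0.15. Differences of single libraries are taken to the siNC library of the same background. With 1 such control, the siWFDC21P-2 contrast takes its spread from all libraries. Whether replicates are separate transfections is not stated, so p-values measure the spread between libraries, which may be technical.

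Values in every library are given for genes with 1 of the 5 largest positive or negative fold changes or an unadjusted p under 0.05 for either siRNA, and for the highest and lowest gene of each role; other lists give up to 3 genes with the smallest p. FOS, MAFF, NR4A2, CCN2 and the genes that passed without 1 library were named after their values were seen. The 38 genes, the lists and the backgrounds were chosen with earlier results of these data known. The fit was tested on simulated data, with 200 of 13014 genes changed equally in all libraries of a group. The simulated noise was taken from a fit with the background and without the siRNA group. Other covariates, pseudocounts, filters, scalings, limma-voom and leaving out each library were tried as alternatives. Promoters are from RefSeq (GRCh38.p14), and 3′ UTRs from GENCODE v29.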

Additional observations from a re-analysis of the deposited data

Results flagged for a closer look

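With siWFDC21P-1, 9 of the 34 tested genes (26.5%, against 22.8% of all tested genes) lay on opposite sides of the control in background 1 (both libraries) and in background 2 (1 library). Given as background 1 minus background 2 on the log2(FPKM + 1) scale, the differences were 1.56 for IER5L, 0.65 for SPRY2, -1.16 for NR4A1, -1.15 for ZFP36, -0.87 for DUSP1, -0.32 for ETV4, -0.27 for KLF4, -0.25 for SPRED2 and -0.13 for FOS. The interaction test in limma called 0 of 13014 genes, and at an unadjusted p under 0.05 it had 1 of the 34 (IER5L, adjusted p = 0.777). The control of background 2 is the library labelled siNC replicate 2, whose WFDC21P level was near 0, so that no fall of the target could be seen there.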

How the results depend on the processing

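Of 531 recomputed values of 28 fold changes in 21 named genes, 508 kept their direction and side of the threshold, 12 newly passed and 11 changed sign. Without a covariate, the siWFDC21P-2 fold changes of EGR1 (1.39), DUSP6 (0.74), SPRY4 (0.72) and ZFP36 (0.21) and the siWFDC21P-1 values of JUN (-1.29) and KLF6 (-0.45) turned, and the medians became -0.44 for siWFDC21P-1 and -0.007 for siWFDC21P-2. JUN also turned with the naming style in place of the background (-0.057) and with the replicate block (-0.006). The replicate block turned DUSP4 (-0.28) and IER5L (-0.11) for siWFDC21P-2, and DUSP4 ranged from -0.01 (without siWFDC21P-2 replicate 1) to 0.272 when 1 library was left out. The cause of these turns was not tested. Genes lower in all 3 siWFDC21P-1 libraries numbered 14, against 4 with the naming style (6.26% of all tested genes), 3 without a covariate (2.94%) and 7 against the siNC library of the same number (replicate block, 9.48%). For siWFDC21P-2 they numbered 23, against 5 without a covariate (9.51%) and 6 with that pairing (16.4%).

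For siWFDC21P-1, the 3 genes passing became 0 with the naming style, no covariate, the replicate block, the libraries of the same backgrounds only or no filter on low values, 26 at a mean of at least 5 FPKM, 16 after quantile normalization and 26 in limma-voom. Of the early genes 1 passed at a mean of at least 5 FPKM and 1 in limma-voom. Without a filter, 17 genes passed for siWFDC21P-2 and 7 for the difference between the siRNAs. Leaving out 1 library gave 0 to 153 genes for siWFDC21P-1 (0 to 3 early genes), 0 to 902 for siWFDC21P-2 (0 to 9) and 0 to 182 for the difference (0 to 1), the upper ends all without siWFDC21P-2 replicate 1. The siWFDC21P-1 median ranged from -0.19 to 0.00, the latter without siNC replicate 1, and without siNC replicate 3 the siWFDC21P-2 contrast could not be fitted. Same-numbered libraries correlated at -0.683 to 0.667 in their deviations from the group means. The background was left in these deviations, so they cannot show whether the replicate numbers pair the samples. The replicate block called 0 genes, which does not decide it either.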
